A study of Mus musculus with 17 samples.

Results

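The 8 genes described here encode the main protein parts of the perineuronal net and of the loose matrix of the brain, and 1 enzyme that modifies them. They were chosen by symbol (Acan, Bcan, Ncan, Vcan, Hapln1, Hapln4, Tnr and Chst3) and all 8 were found among the 25239 genes of the deposited count tables. Tissue RNA of the orbitofrontal cortex (OFC) and of the medial prefrontal cortex (mPFC) was sequenced in bulk. All groups come from the DAT-cre mouse line, in which dopamine neurons express Cre recombinase. The study compared mice that the labels class as perseverers (addicted) with renouncers (non-addicted), before and after oDASS, a protocol of optogenetic dopamine neuron self-stimulation. After oDASS, tissue dissections gave 3 perseverer and 3 renouncer libraries of the OFC and 3 perseverer and 3 renouncer libraries of the mPFC. From the time before oDASS there are 2 perseverer and 3 renouncer libraries, made from OFC tissue imprints. Age, sex and strain background are not stated in the labels, and imprints of the mPFC were not analysed here. Nothing in the labels says that replicates are separate animals, so p-values measure the spread between these libraries, which may be technical.

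The perineuronal net is a lattice of matrix that wraps some neurons, in the cortex above all the fast-spiking interneurons that make parvalbumin. Its backbone is hyaluronan, a long sugar chain made at the cell surface. The lecticans aggrecan (Acan), brevican (Bcan), neurocan (Ncan) and versican (Vcan) are chondroitin sulfate proteoglycans that bind the backbone, link proteins such as Hapln1 and Hapln4 hold them there, and tenascin-R (Tnr) ties lecticans to each other. Chst3 puts sulfate on position 6 of chondroitin sulfate chains, a mark of the more permissive, juvenile matrix. Nets close developmental windows of plasticity and their removal in rodents alters the persistence of learned behaviour.

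The dissections held 12392731 to 20945108 counts per library and the imprints 8960549 to 10662666. Haemoglobin genes took at most 0.0787% of the counts of a dissection, against 29.7% in renouncer imprint 1 and 85.4% to 90.7% in the other 4 imprints, which kept 980475 to 1306576 counts outside haemoglobin. All dissections were taken after oDASS and all imprints before it, so that stage and manner of collection cannot be told apart. In bulk tissue, fewer cells of a type and less RNA per cell cannot be told apart either. Levels are given as CPM, counts scaled to a common library size with TMM factors, and levels of different genes are compared only per kilobase of the gene length in the tables. The factors were 1.97 to 2.11 in dissections, 1.38 in renouncer imprint 1 and 0.0662 to 0.222 in the other 4 imprints. CPM of an imprint are therefore not shares of its own total, and differences between dissections and imprints depend on this scaling.

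In the genome the lecticans and link proteins sit next to each other in pairs. In the RefSeq annotation of GRCm38, the build named for these data, Ncan and Hapln4 lie 2222 bases apart on chromosome 8, on opposite strands. Vcan and Hapln1 lie 43476 bases apart on chromosome 13, Acan and Hapln3 1927 bases apart on chromosome 7, and Bcan and Hapln2 18382 bases apart on chromosome 3. There were 0 protein-coding genes between the partners of each pair. Tnr stands alone on chromosome 1 (159523729 to 159931729) and Chst3 on chromosome 10 (60181527 to 60222114). The library kit does not keep the strand, but in GENCODE vM21 7 of the 8 genes shared 0% of their exon bases with another gene. Tnr shared 3.44% with the gene model Gm38039. The Tnr exons there cover 12867 bases against a deposited gene length of 5395, so its level per kilobase depends on the length used.

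The RefSeq promoter windows of the genes differed in CpG content, the feature by which housekeeping-type and tissue-restricted promoters are often told apart. RefSeq entries (GRCm38.p6) were matched for 7 of the 8 genes, all but Hapln4. Each window is the 250 bases before the start of 1 transcript, and that start can lie inside the bounds of the gene set by other transcripts. The windows of Bcan, Vcan and Chst3 lay wholly within the RefSeq bounds of their genes, those of Hapln1, Tnr and Ncan had 107, 40 and 19 bases there, and that of Acan had 0. All 250 bases of the Hapln1 window and 29 of the Ncan window were exonic in GENCODE vM21, and 0 bases of the other 5. In these windows there were 26 CpG in Acan, 18 in Chst3, 16 in Bcan, 10 in Vcan, 6 in Ncan, 2 in Hapln1 and 2 in Tnr, against a median of 6 over 32851 promoters of the same length. Those of Tnr and Chst3 are shown because these genes were called between dissection and imprint in opposite directions. Each runs 5′ to 3′ on the strand of its gene, with CG in capitals, and that of Tnr ends where its RefSeq gene bounds begin.
Tnr (chr1:159523519-159523728, plus strand): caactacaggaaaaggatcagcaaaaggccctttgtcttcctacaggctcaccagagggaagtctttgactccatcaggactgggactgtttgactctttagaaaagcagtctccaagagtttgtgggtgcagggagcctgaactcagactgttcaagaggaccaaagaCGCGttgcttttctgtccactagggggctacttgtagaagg
Chst3 (chr10:60219261-60219510, minus strand): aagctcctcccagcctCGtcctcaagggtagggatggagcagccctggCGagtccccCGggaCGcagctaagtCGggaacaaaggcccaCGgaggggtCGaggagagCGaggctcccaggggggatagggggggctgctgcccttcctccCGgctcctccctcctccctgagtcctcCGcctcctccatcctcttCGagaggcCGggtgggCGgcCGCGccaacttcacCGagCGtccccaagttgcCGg
The GC box GGGCGG, searched on both strands of the full 250 bases, had 3 matches in Acan and 2 in Vcan. Bcan, Ncan and Chst3 had 1 each, Hapln1 and Tnr had 0, and 32.7% of all promoters held it. TATAA, also on both strands, had 2 matches in Ncan and 0 in the other windows (22.8% of all promoters held it). The E-box CACGTG had 0 in each window (6.02%). The matches describe letters in these windows and were not linked to any expression value.

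Brevican mRNA was the most abundant of the 8 per kilobase in all 17 libraries. Over the 12 dissections the order per kilobase was Bcan at 113 ± 14.1 CPM per kb, Hapln4 at 45.5 ± 10.7, Ncan at 24.3 ± 4.2, Hapln1 at 8.67 ± 2.05, Tnr at 5.06 ± 1.68, Vcan at 0.362 ± 0.162, Chst3 at 0.169 ± 0.122 and Acan at 0.098 ± 0.071 (SD, n = 12). Neighbours in this order were not all apart. Hapln4 stood above Ncan in 11 of 12 dissections, Hapln1 above Tnr in 9, Vcan above Chst3 in 10 and Chst3 above Acan in 10, whereas the steps from Bcan to Hapln4, from Ncan to Hapln1 and from Tnr to Vcan held in all 12. Among the 4 lecticans, Bcan made up 82.0 ± 1.9% of the summed level per kilobase in the dissections, Ncan 17.6 ± 2.0%, Vcan 0.262 ± 0.116% and Acan 0.0735 ± 0.0565%.

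Aggrecan, the lectican most often used to mark nets, was close to the limit of detection. It had 17, 14 and 6 counts in the OFC perseverer dissections and 10, 23 and 11 in the OFC renouncer dissections. It had 13, 5 and 0 counts in the mPFC perseverer dissections and 0, 21 and 15 in the mPFC renouncer dissections. Imprints held 0 and 5 counts in perseverers and 3, 0 and 1 in renouncers. A count of 0 allows up to 3 counts by counting error alone, which is 0.171 CPM in mPFC perseverer dissection 3 and 0.18 CPM in mPFC renouncer dissection 1, but 3.07 CPM in perseverer imprint 1 and 8.67 CPM in renouncer imprint 2. In these 2 imprints the OFC dissection mean of 0.837 ± 0.439 CPM (SD, n = 6) would give 0.817 and 0.29 counts. Their 0 counts therefore do not tell whether the level was lower. Perseverer imprint 2 had its 5 counts where 0.321 would be expected (95% exact Poisson interval 1.62 to 11.7, counting error only). Pvalb and the other 7 genes listed for parvalbumin interneurons summed to 343 to 642 CPM in the dissections, with 0 of the 8 at 0 in any dissection. They summed to 171 to 267 CPM in the imprints, where 1 was at 0 in perseverer imprint 2 and 1 in renouncer imprint 2. The list also holds Gad1 and Gad2, which other interneurons make too.

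**Figure D1:**
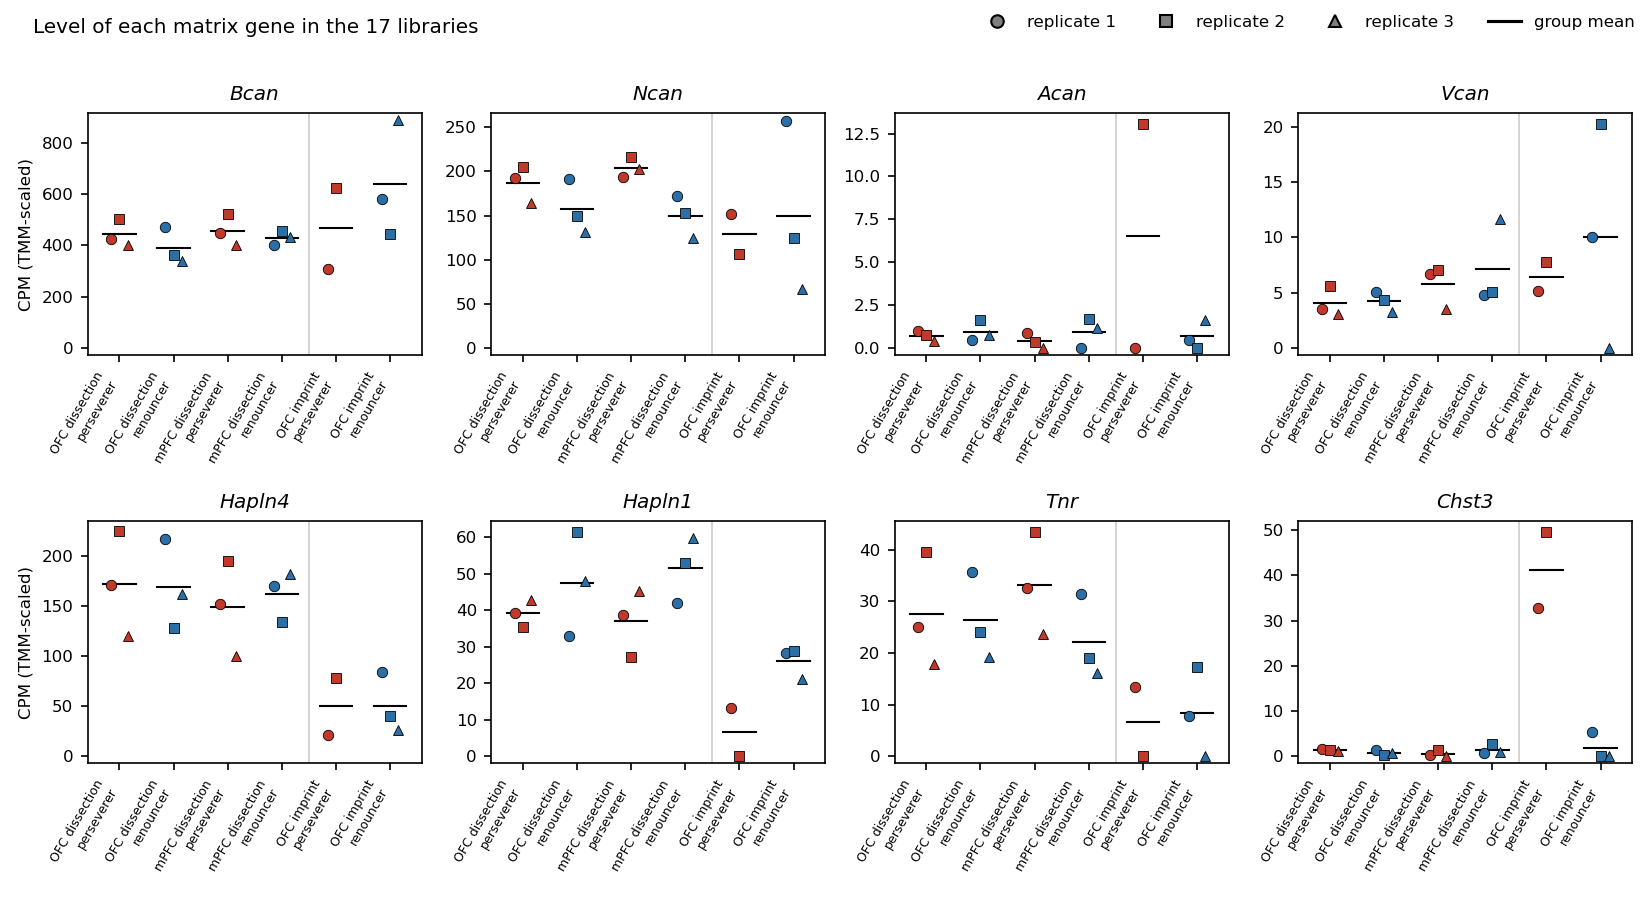
TMM-scaled CPM (vertical axes, each starting at 0) of the 8 genes in every library, by group along the horizontal axis; perseverers are red, renouncers blue, the marker shape gives the replicate number and the line is the group mean. Hapln4, Hapln1 and Tnr sit lower in the imprints right of the grey line, and Chst3 is high in both perseverer imprints (32.8 and 49.6 CPM).

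Within the dissections the abundant genes varied by at most 2.70-fold between libraries, and 4 of them ranked high together in 2 libraries, though not throughout. Bcan ranged from 339 to 524 CPM, Ncan from 124.04 to 216, Hapln4 from 100.3 to 225, Tnr from 16.1 to 43.4 and Hapln1 from 27.2 to 61.4. Perseverer dissection 2 of the OFC ranked 2, 2, 1 and 2 of 12 for Bcan, Ncan, Hapln4 and Tnr and 10 for Hapln1. Perseverer dissection 2 of the mPFC ranked 1, 1, 3 and 1 for the same 4 genes and 12, the lowest, for Hapln1. These 2 libraries carry consecutive codes, and no label says whether they share an animal or batch, so they may not be independent. Elsewhere the 4 genes parted, with ranks of 9, 3, 12 and 8 in mPFC perseverer dissection 3 and of 6, 12, 4 and 12 in mPFC renouncer dissection 3. The highest Hapln1 level, 61.4 CPM in OFC renouncer dissection 2, came with ranks of 11, 10, 10 and 7 for the other 4 genes. Perseverer dissection 2 of each region also had the lowest summed level of 6 oligodendrocyte markers in that region, with 5780 CPM against up to 19292 in other OFC dissections and 2082 CPM against up to 8110 in other mPFC dissections. Whether the myelin content of a piece of tissue takes part in the matrix gene levels was not tested.

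**Figure D2:**
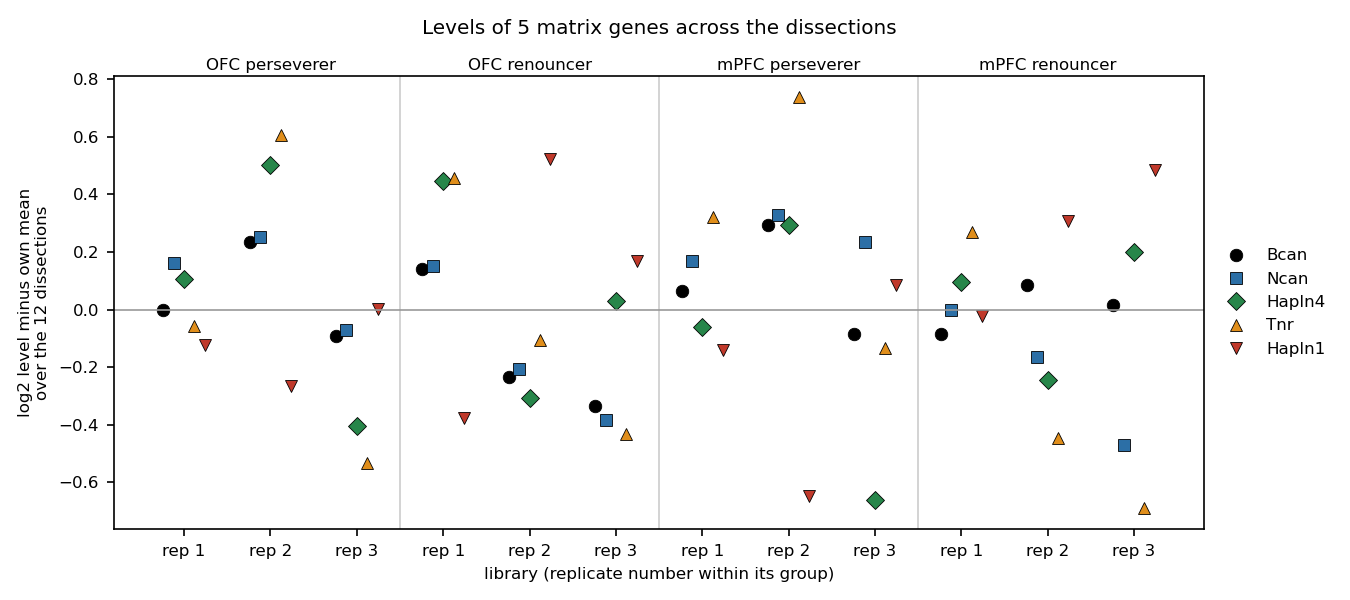
Log2 level minus the gene's own mean over the 12 dissections (vertical axis) for 5 genes in each dissection (horizontal axis, by group and replicate number). In replicate 2 of both perseverer groups Bcan, Ncan, Hapln4 and Tnr lie above 0 and Hapln1 below.

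The genes whose profile over the 12 dissections was most like that of each member were found by the root mean square difference of centred log2 CPM among 9530 genes of at least 10 mean CPM. They were Dapk3 and Sik3 for Bcan (0.0568 and 0.065), Xpo6 and Dctn1 for Ncan (0.0747 and 0.0768), Kcnh1 and Usp33 for Hapln4 (0.109 and 0.129), Mcee and Ebag9 for Hapln1 (0.139 and 0.155) and Slc23a2 and Nol6 for Tnr (0.187 and 0.199). For comparison, Bcan, Ncan, Hapln4, Hapln1 and Tnr departed from their own means by 0.174, 0.25, 0.337, 0.331 and 0.454 on the same scale. The nearest other matrix gene of Bcan was Ncan at 0.195. For the sparse genes the smallest differences were larger, at 0.271 (Mapk1ip1l) and 0.276 (Ccdc93) for Vcan, 0.767 (Nup160) and 0.822 (Supt7l) for Chst3 and 1.02 (Slc29a1) and 1.24 (Calhm5) for Acan. Vcan, Chst3 and Acan departed from their own means by 0.522, 1.15 and 1.58. They lie below 10 mean CPM themselves, unlike the genes searched, so these distances say little about likeness.

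Perseverers and renouncers were compared to ask whether the matrix differs between animals that kept and gave up self-stimulation. In the OFC after oDASS none of the 8 genes passed the test, and the same held in the mPFC. Called genes are those with a Benjamini-Hochberg adjusted p under 0.05 in edgeR's quasi-likelihood test over all genes tested. In the OFC 0 of 8 members and 0% of 14621 genes were called, and 0 of 8 had groups that did not overlap, beside 9.12% of all genes. DESeq2 called 0 genes as well, and 377 genes, 2.58%, had an unadjusted p under 0.05 by edgeR and 420 by DESeq2. In the mPFC 0 of 8 members and 0% of 14375 genes were called, again 0 by DESeq2, with 639 genes, 4.45%, at an unadjusted p under 0.05 by edgeR and 767 by DESeq2.

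Among the lecticans, Ncan had the clearest separation. It stood at 193, 216 and 202.5 CPM in mPFC perseverers and at 172, 153 and 124.04 CPM in mPFC renouncers. All 3 perseverer libraries were above all 3 renouncer libraries, as was the case in one direction or the other for 11.2% of all genes tested in the mPFC. The log2 fold change was 0.46 ± 0.17 (SE) with an unadjusted p of 0.0219 and an edgeR adjusted p of 0.943. In the OFC, Ncan had 192, 205 and 164 CPM in perseverers and 191, 149 and 132 CPM in renouncers. There the groups overlapped, with a log2 fold change of 0.26 ± 0.17 and an edgeR adjusted p of 0.951. Bcan, the other abundant lectican, had smaller differences, by 0.10 ± 0.16 on the log2 scale in the mPFC and 0.20 ± 0.17 in the OFC, with intervals of −0.21 to 0.41 and −0.14 to 0.53. Relative to Bcan, which needs no library scaling, Ncan had 43.2, 41.3 and 50.3 counts per 100 Bcan counts in mPFC perseverers and 42.7, 33.7 and 28.7 in mPFC renouncers, and these ranges overlapped.

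The link protein Hapln1 leaned the other way. It had 38.7, 27.2 and 45.4 CPM in mPFC perseverers and 42.1, 52.9 and 59.8 CPM in mPFC renouncers, with overlapping groups and a log2 fold change of −0.45 ± 0.24 (edgeR adjusted p = 0.943). In the OFC it had 39.2, 35.5 and 42.8 CPM in perseverers and 32.9, 61.4 and 48.0 CPM in renouncers, a log2 fold change of −0.26 ± 0.22 (edgeR adjusted p = 0.951). Hapln4, which in mouse cerebellum fixes brevican at inhibitory synapses, differed by −0.12 ± 0.23 in the mPFC and 0.04 ± 0.23 in the OFC on the log2 scale. Tnr had 32.5, 43.4 and 23.7 CPM in mPFC perseverers and 31.3, 19.0 and 16.1 CPM in mPFC renouncers, a log2 fold change of 0.58 ± 0.29 with an edgeR adjusted p of 0.943. Its OFC difference was 0.07 ± 0.28. The sparse genes had wide errors, with −1.17 ± 1.35 for Acan, −0.31 ± 0.43 for Vcan and −1.36 ± 0.98 for Chst3 in the mPFC and −0.33 ± 0.60, −0.04 ± 0.32 and 0.79 ± 0.59 in the OFC.

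**Figure D3:**
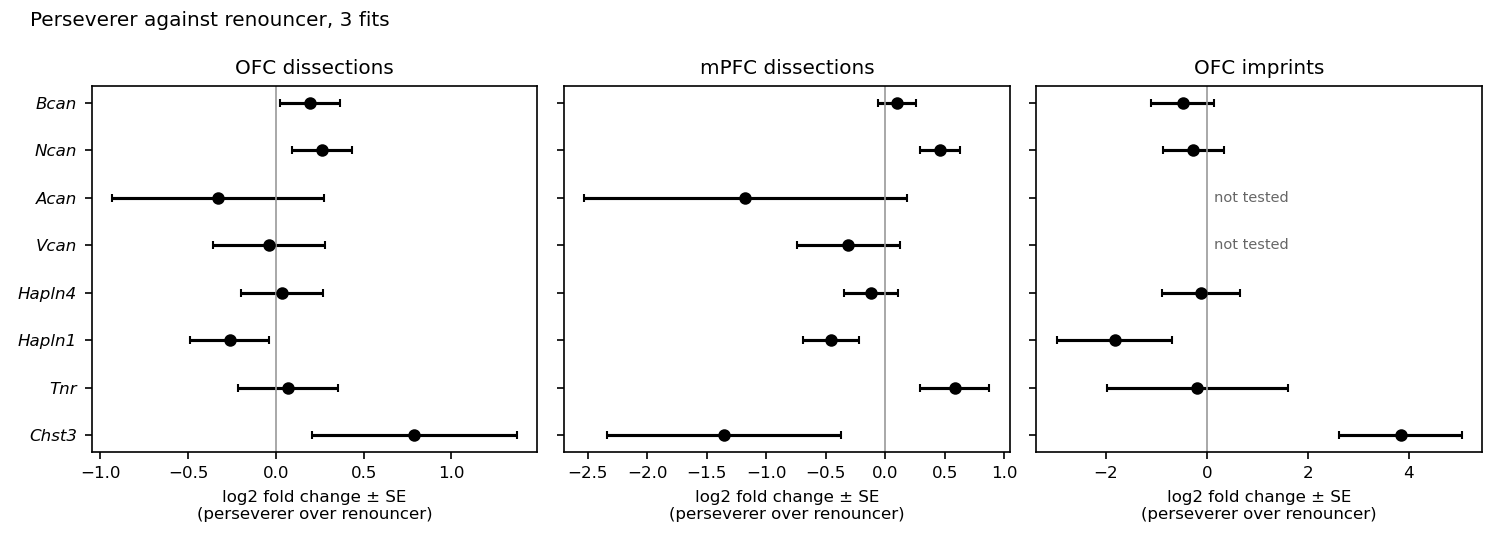
Log2 fold change of perseverers over renouncers (horizontal axis) with its SE for each gene (vertical axis) in OFC dissections, mPFC dissections and OFC imprints. No point passed the adjusted threshold, and Acan and Vcan were not tested in the imprints.

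The wider pathway gave the same counts. Of 84 further genes of chondroitin sulfate and hyaluronan metabolism, matrix proteases, net receptors and other neural matrix, 76 were tested in each region and 0 were called. In the mPFC the smallest p among them was that of Plxna1, a receptor subunit for the net-bound ligand semaphorin 3A, at a log2 fold change of 0.67 ± 0.21 (unadjusted p = 0.00874, edgeR adjusted p = 0.943). In the OFC it was Thbs1, an astrocyte-secreted matrix protein that promotes synapse formation, at −1.58 ± 0.63 (unadjusted p = 0.0284, edgeR adjusted p = 0.951). Marker lists gave 0 calls in both regions. In the mPFC the 5 excitatory neuron markers had a median log2 difference of 0.38 and summed to 3910 to 6333 CPM in perseverers and 2919 to 3690 CPM in renouncers, while the 5 markers of other interneurons had a median of −0.31. In the OFC the excitatory neuron markers summed to 4350 to 4826 CPM in perseverers and 3165 to 3987 CPM in renouncers. In the imprints the order was the other way, with 1321 to 1813 CPM in perseverers and 1957 to 2904 CPM in renouncers. The part of these cell types in the Ncan and Hapln1 differences was not tested.

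In the imprints before oDASS, 6 of the 8 genes had enough counts for the test, without Acan and Vcan. There were 0 calls among the 6 and 0% of 10530 genes were called, DESeq2 called 0, and 181 genes (1.72%) by edgeR and 237 by DESeq2 had an unadjusted p under 0.05. Chst3 had 32 and 19 counts in perseverer imprints and 33, 0 and 0 counts in renouncer imprints, the 33 in the library with the lowest haemoglobin share. As CPM these were 32.8 and 49.6 in perseverers and 5.24, 0 and 0 in renouncers. The groups did not overlap, nor did those of Hapln1, which makes 2 of 6 members beside 16.3% of all genes tested. The log2 fold change of Chst3 was 3.84 ± 1.21, with an unadjusted p of 0.00909 and an edgeR adjusted p of 0.99989. With single libraries left out it was 3.37 to 7.57, the highest without renouncer imprint 1. That fit left only renouncer imprints with 0 counts, so the size of its fold is not determined by the counts. Hapln1 had 13 and 0 counts in perseverer imprints and 178, 10 and 13 in renouncer imprints, a log2 fold change of −1.83 ± 1.15. The Hapln1 value was −8.66 without perseverer imprint 1 and −0.95 without perseverer imprint 2. In the first case the perseverer imprint left had 0 counts, so the size of the fold is again not determined. Bcan, Ncan, Hapln4 and Tnr differed by −0.47 ± 0.62, −0.26 ± 0.60, −0.12 ± 0.77 and −0.18 ± 1.79 on the log2 scale.

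The tests of whether the phenotype difference itself changed gave 0 calls. Between regions 0 of 8 members and 0% of 15025 genes were called, with 225 genes (1.5%) at an unadjusted p under 0.05, and DESeq2 called 0 and had 287 at that level. Between stages 0 of 8 members and 0% of 15229 genes were called, with 1336 genes (8.77%) at an unadjusted p under 0.05, while DESeq2 called 80 and had 1626. The smallest p of a member was that of Chst3 between stages, with a difference of log2 fold changes of −2.83 ± 1.12 (unadjusted p = 0.0241, edgeR adjusted p = 0.535). It was −10.99 without renouncer imprint 1, where the renouncer imprints left had 0 counts and the size is not determined. Without OFC renouncer dissection 1 it was −2.07.

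None of the 8 genes was called between OFC and mPFC. In the 12 dissections 264 of 15025 genes, 1.76%, were called between regions (0.892% higher and 0.865% lower in the OFC). Same-numbered OFC and mPFC libraries, which have consecutive codes, were fitted as unpaired, while a block by replicate number called 1130 genes. Bcan averaged 418 ± 62.9 CPM in the OFC and 444 ± 44.6 CPM in the mPFC (SD, n = 6 each), a log2 fold change of −0.09 ± 0.10 with an interval of −0.29 to 0.11. For Ncan the difference was −0.03 ± 0.11 (−0.25 to 0.19), for Hapln4 0.13 ± 0.17 (−0.20 to 0.46), for Hapln1 −0.02 ± 0.17 (−0.36 to 0.31) and for Tnr −0.01 ± 0.23 (−0.46 to 0.43). Vcan, the lectican of the loose matrix and of oligodendrocyte precursors, ranged from 3.09 to 5.59 CPM in the OFC with a median of 3.97, and from 3.54 to 11.7 CPM in the mPFC with a median of 5.90. The groups overlapped, and its log2 fold change of −0.63 ± 0.27 had an unadjusted p of 0.035 and an edgeR adjusted p of 0.297. Its interval was −1.16 to −0.10. Acan and Chst3 differed by 0.41 ± 0.78 and 0.18 ± 0.67, with wide intervals of −1.12 to 1.93 and −1.13 to 1.5.

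Of the wider pathway 1 of 79 genes tested was called between regions, 1.27% against 1.76% of all genes. Nptx2, a pentraxin that gathers AMPA receptors on parvalbumin interneurons, was lower in the OFC by a log2 fold change of −0.82 ± 0.18 (edgeR adjusted p = 0.033). Among the 8 genes listed for parvalbumin interneurons, Syt2 was higher in the OFC at 1.54 ± 0.37 (edgeR adjusted p = 0.0468), and the other 7 were not called. The astrocyte gene Gfap was higher at 1.39 ± 0.22 (edgeR adjusted p = 0.00466). Oligodendrocyte markers summed to 5780 to 19292 CPM in the OFC and 2082 to 8110 CPM in the mPFC, with 0 of 6 called.

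Dissections after oDASS and imprints before it differed most. Both link proteins and tenascin-R were higher in the OFC dissections, and Chst3 was lower, while none of the 4 lecticans passed the test. Of 15229 genes tested 5106, 33.5%, were called, with 2732 (17.9%) higher and 2374 (15.6%) lower. Of the 8 members 4 were called, 3 higher and 1 lower, and 3 had groups that did not overlap, beside 24.3% of all genes. Unadjusted p-values under 0.05 were found for 43.6% of all genes. The median log2 fold change was −0.10 over the 8 members and 0.16 over all genes tested.

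Hapln4 was higher in the OFC dissections than in the imprints. It ranged from 119.7 to 225 CPM in OFC dissections with a median of 166, and stood at 21.5 and 78.3 CPM in perseverer imprints and 83.7, 40.5 and 26.2 CPM in renouncer imprints. Every dissection was above every imprint, the log2 fold change was 1.74 ± 0.35 and the edgeR adjusted p was 0.00111. At the OFC dissection level and the TMM-scaled size of each library, 166, 65.3, 1072, 58.9 and 103.9 counts would be expected in the 5 imprints. The counts found were 21 and 30 in perseverers and 527, 14 and 16 in renouncers, each with a 95% exact Poisson interval wholly below that count, which covers counting error only.

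Hapln1 ranged from 32.9 to 61.4 CPM in OFC dissections with a median of 41.0, and had 13.3 and 0 CPM in perseverer imprints and 28.3, 28.9 and 21.3 CPM in renouncer imprints. The groups did not overlap and the log2 fold change was 1.32 ± 0.41 (edgeR adjusted p = 0.0196). Tnr ranged from 17.9 to 39.6 CPM in OFC dissections with a median of 24.5, and had 13.3 and 0 CPM in perseverer imprints and 7.78, 17.3 and 0 CPM in renouncer imprints. Here too the groups did not overlap, though by a small margin, and the log2 fold change was 1.76 ± 0.57 (edgeR adjusted p = 0.0241). Counts of both genes in the imprints were small, at most 13 outside renouncer imprint 1, where Hapln1 had 178 and Tnr 49.

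Chst3 ranged from 0.212 to 1.52 CPM in OFC dissections with a median of 1.27, against 32.8 and 49.6 CPM in perseverer imprints and 5.24, 0 and 0 CPM in renouncer imprints. The groups overlapped because of the 2 imprints with 0 counts, where 0.368 and 0.648 counts would be expected at the dissection level. In the other 3 imprints 32, 19 and 33 counts were found where 1.04, 0.407 and 6.69 would be expected. The log2 fold change was −3.54 ± 0.72 (edgeR adjusted p = 0.00116).

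The lecticans were not called, and their values spread more in the imprints than in the dissections. Bcan averaged 418 ± 62.9 CPM in OFC dissections (SD, n = 6) and 569 ± 216 CPM in imprints (SD, n = 5), a log2 fold change of −0.44 ± 0.25 (edgeR adjusted p = 0.197). Ncan averaged 172 ± 28.5 CPM in OFC dissections and 141 ± 71.3 CPM in imprints, a log2 fold change of 0.23 ± 0.29 (edgeR adjusted p = 0.563). With renouncer imprint 1 as the only imprint, the 4 imprints above 80% haemoglobin left out, Ncan was lower in dissections at −0.74. That fit holds no spread between imprints. Vcan and Acan differed by −0.94 ± 0.58 and −1.13 ± 1.0, neither called.

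Ratios to Bcan, which are free of library scaling, set the link proteins and Tnr apart in the same direction. Hapln4 had 29.8 to 47.8 counts per 100 Bcan counts in OFC dissections and 2.96 to 14.4 in imprints. Hapln1 had 6.97 to 16.9 per 100 in OFC dissections and 0 to 6.49 in imprints, and Tnr 4.47 to 7.86 and 0 to 4.30. Ncan had 38.9 to 45.0 per 100 in OFC dissections and 7.58 to 49.0 in imprints, where 2 of 5 libraries lay within or above the range of the dissections. These are descriptions of ratios and say only that the genes differed by unequal amounts.

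**Figure D4:**
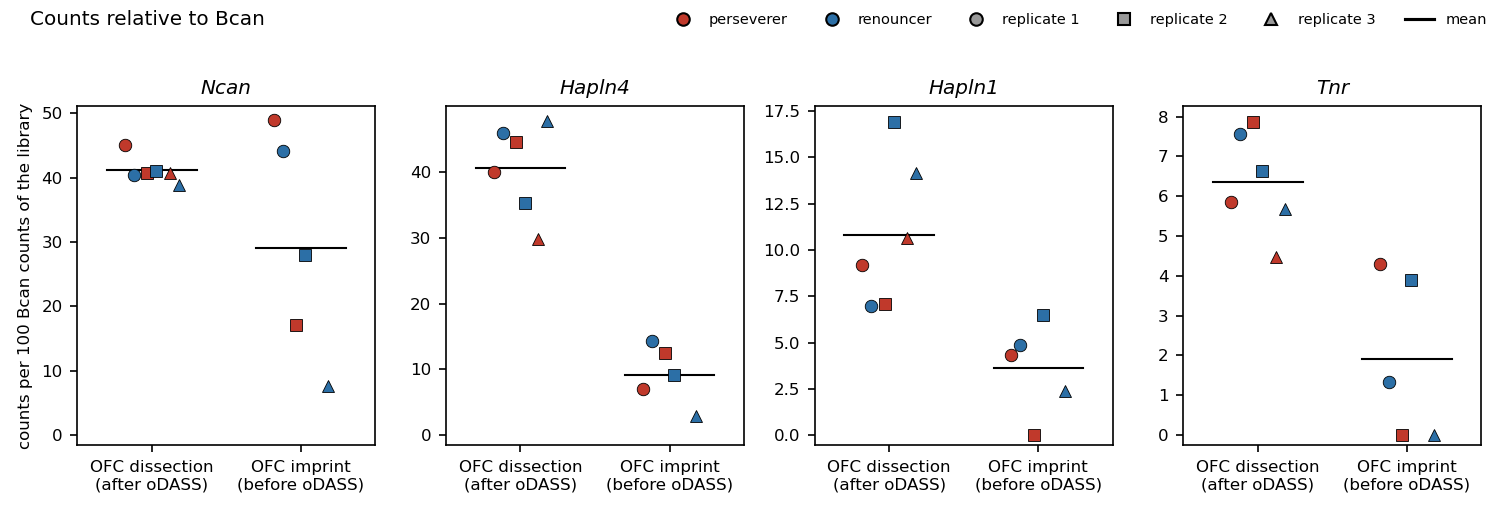
Counts of Ncan, Hapln4, Hapln1 and Tnr per 100 Bcan counts of the same library (vertical axes) in OFC dissections and OFC imprints; colour gives the phenotype, marker shape the replicate number and the line the mean. The Hapln4, Hapln1 and Tnr values do not overlap between dissections and imprints, whereas those of Ncan do.

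The calls depended on the setting in different degrees. Over the alternatives and left-out libraries run, Chst3 was called in 19 of 19 fits that tested it, Hapln4 in 19 of 20, Hapln1 in 16 of 20 and Tnr in 16 of 20, each with its direction kept in all of them. Hapln4 fell to 0.97 with renouncer imprint 1 as the only imprint. That fit is among those counted but holds no spread between imprints, so its calls do not measure it. With the length trend of each library removed, Hapln1 fell to 0.78 ± 0.42 (edgeR adjusted p = 0.172) and Tnr to 1.25 ± 0.59 (edgeR adjusted p = 0.12), and Bcan was called at −1.11 ± 0.27 (edgeR adjusted p = 0.0052). That setting turned the split of all calls to 1441 higher and 3742 lower and moved the median of all genes to −0.28.

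**Figure D5:**
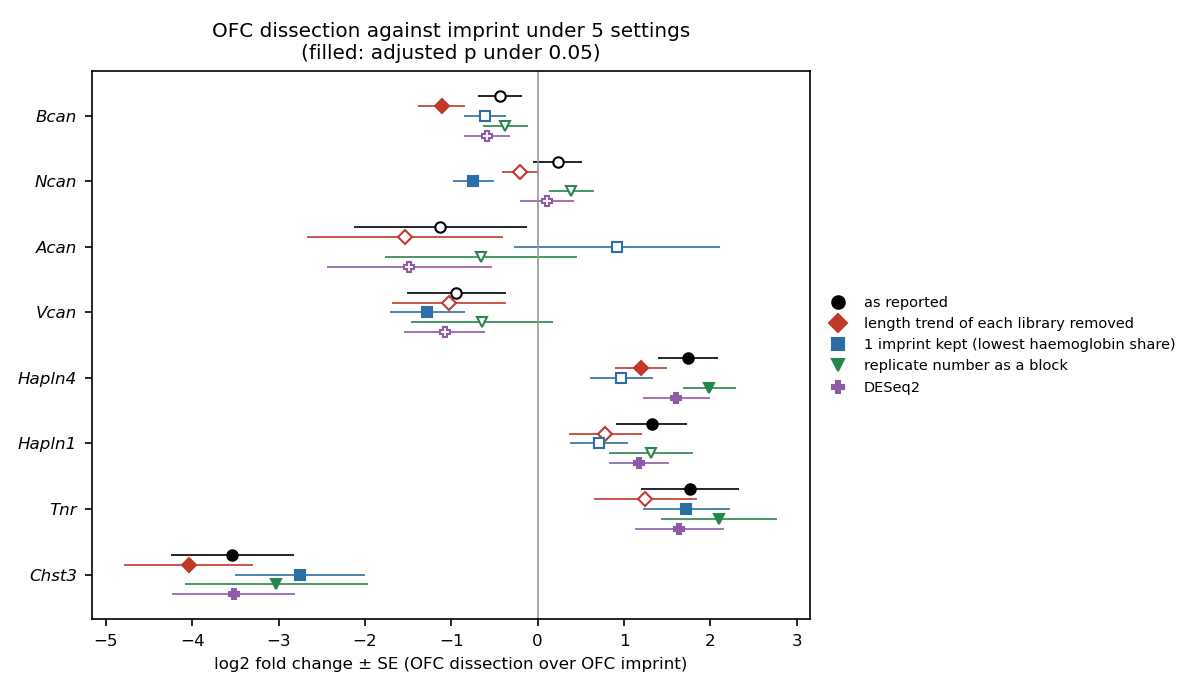
Log2 fold change of OFC dissection over OFC imprint with its SE (horizontal axis) for each gene (vertical axis) under 5 settings, filled where the adjusted p was under 0.05. Hapln4, Hapln1 and Tnr lie above 0 and Chst3 below 0 under all 5, while Ncan and Acan change side.

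Cell type markers moved with this comparison, in which 17.9% of all genes tested were called higher and 15.6% lower. Excitatory neuron markers were higher in the OFC dissections for 5 of 5 genes and summed to 3165 to 4826 CPM there and 1321 to 2904 CPM in imprints. Of the genes listed for parvalbumin interneurons, Gad1 and Gad2 among them, 5 of 8 were higher, Pvalb itself at 1.03 ± 0.29 (edgeR adjusted p = 0.013). They summed to 455 to 630 CPM in dissections and 171 to 267 CPM in imprints. The 5 markers of other interneurons summed to 1256 to 1947 CPM in dissections and 431 to 805 CPM in imprints. Astrocyte markers were higher for 4 of 6, summing to 3366 to 4505 CPM in dissections and 1653 to 5597 CPM in imprints. Oligodendrocyte precursor markers were lower for 1 of 6 (263 to 346 CPM in dissections, 408 to 603 CPM in imprints), and microglia markers for 4 of 5. White blood cell markers were lower for 5 of 5, summing to 2.30 to 4.80 CPM in dissections and 923 to 6764 CPM in imprints. The part of these cell types in the differences of the matrix genes was not tested.

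The wider pathway held both directions, with 26 genes higher and 6 lower of 79 tested, 40.5% called beside 33.5% of all genes. Net receptors and bound ligands had the most, 10 of 15 higher and 0 lower. Among them were Nptx1, a synaptic pentraxin, at a log2 fold change of 2.96 ± 0.25 (edgeR adjusted p = 2.8e-07), Ptprs, the receptor phosphatase that binds chondroitin sulfate, at 1.60 ± 0.25 (edgeR adjusted p = 0.000137), and Sema3a, a guidance factor trapped by nets, at 2.63 ± 0.46 (edgeR adjusted p = 0.00036). Chondroitin sulfate synthesis had 5 of 13 higher and 1 lower, with Chsy3 at 2.08 ± 0.44 and Chsy1, another chain-building enzyme, at −1.43 ± 0.46. The other sulfotransferases had 0 of 6 higher and 2 lower, Chst12 at −1.40 ± 0.30 and Chst7, which like Chst3 sulfates position 6, at −1.83 ± 0.65. Proteases and inhibitors had 4 of 16 higher, among them tissue plasminogen activator (Plat) at 2.02 ± 0.52, and 1 lower, the gelatinase Mmp9 at −6.04 ± 0.88. Hyaluronan genes had 1 of 7 higher, Hyal2, and 1 lower, the hyaluronan receptor Cd44 at −4.05 ± 0.45. Other neural matrix genes had 6 of 20 higher, with Crtac1 at 3.21 ± 0.44 and Spock3 at 3.29 ± 0.47, and 1 lower, Thbs1 at −7.19 ± 0.76. Cd44, Mmp9 and Thbs1 are also made by blood cells or platelets, and neither Hapln2 nor Hapln3 was called.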

How the data were processed

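Per the labels' protocols, total RNA came from a Qiagen micro elution kit and libraries from SMART-Seq v4 and Nextera kits, which keep no strand. The authors deposited 3 tables of raw counts per gene with a gene length. FastQC 0.11.8 and the build mm10 are named in the submitters' processing notes; aligner, counter and annotation were not given in the sources used here. The members and all lists were chosen with earlier results of these data known.

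Counts were fitted in R 4.3.3 with edgeR 4.0.16 (filterByExpr with a minimum count of 10, TMM, robust quasi-likelihood, two-sided, Benjamini-Hochberg threshold 0.05). Each phenotype comparison used its own table. Regions (12 dissections) and stages (11 OFC libraries, 2 tables of raw counts joined) had phenotype as a term, and interactions were contrasts of group means. The SE is |log2 fold change| over the root of F, and intervals are 1.96 SE to each side. With so few libraries they are narrower than the F test allows. For Tnr in the mPFC the interval of 0.01 to 1.15 left out 0 at an unadjusted edgeR p of 0.0721. CPM used TMM over all 17 libraries, set so that dissections keep their own totals on average. Members were named throughout, pathway and marker genes by smallest p among those called, up to 4 per direction in a list, and not all are printed. Fits were tested on simulated data. Alternatives were DESeq2 1.42.0, RLE scaling, no and a stricter low-count filter (minimum 50), the replicate number as a block, a fit of all 17 libraries, haemoglobin genes removed, the length trend of each library removed, and each library left out. Leaving out the 4 imprints above 80% haemoglobin was chosen after seeing the data. Counting intervals cover counting error only, since the reads carry no molecular identifiers.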

Additional observations from a re-analysis of the deposited data

How the results depend on the processing

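Over the alternatives and left-out libraries run, the 3 phenotype comparisons and the region comparison gave 0 called members throughout, and dissection against imprint 3 to 5. Genes called moved as follows. For the imprint phenotypes the fit of all 17 libraries called 63 (0 as reported). Between regions DESeq2 called 685, the fit of all 17 libraries 21 and left-out libraries 120 to 448 (264 as reported). For phenotype by stage DESeq2 called 80, the fit of all 17 libraries 6 and left-out libraries 0 to 4. Dissection against imprint ranged from 4138 to 5488 over left-out libraries. With the replicate number as a block the region comparison called 1130; same-numbered OFC and mPFC dissections correlated at 0.0486 to 0.31, each best with its own number. The library codes in the labels are consecutive within each of the 6 pairs, but no label says that a pair shares an animal or batch, so the numbers were not taken as pairs. If they are pairs, the region fit and its intervals ignore that pairing. OFC dissections and imprints of the same number correlated at 0.0251 to 0.103, again each best with its own number. Same-numbered perseverers and renouncers also matched best in the mPFC (0.0362 to 0.0928) and in the imprints (0.0654 to 0.0831), but not all did in the OFC dissections (−0.12 to 0.105). A link by replicate number was not tested. Under the block Hapln1 had an edgeR adjusted p of 0.0511 between dissection and imprint.

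Log2 fold changes that changed sign were all uncalled as reported. With all 17 libraries the imprint Tnr was 0.23. With the length trend removed, OFC Hapln4 and Tnr were −0.0064 and −0.0079, and Ncan between dissection and imprint −0.20. With 4 imprints left out Ncan was −0.74 and Acan 0.92. Tnr by stage was 0.066 in DESeq2 and 0.14 with the block. The cause was not tested. Left-out libraries gave these ranges, in which the size of a fold is not determined where the libraries left in a group all had 0 counts. In the imprints Ncan had −0.64 to 0.47, Hapln4 −1.23 to 0.59 and Tnr −6.96 to 0.75. In the OFC Acan had −0.69 to 0.31, Vcan −0.32 to 0.11, Hapln4 −0.19 to 0.25 and Tnr −0.28 to 0.34. In the mPFC Vcan had −0.53 to 0.23 and Hapln4 −0.34 to 0.087. Between regions Ncan had −0.10 to 0.016, Hapln1 −0.12 to 0.093, Tnr −0.15 to 0.13 and Chst3 −0.15 to 0.72. Between dissection and imprint Acan had −1.91 to 0.92. By region Bcan had −0.031 to 0.21, Vcan −0.30 to 0.46, Hapln1 −0.049 to 0.46 and Hapln4 −0.12 to 0.36. By stage Ncan had −0.15 to 0.82, Hapln4 −0.51 to 1.34, Tnr −0.78 to 9.36 and Acan −4.75 to 5.38.

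Of the members called, Hapln1 was lost without OFC renouncer dissection 2 (edgeR adjusted p = 0.0558), and Tnr without OFC perseverer dissection 2 (0.0621), OFC renouncer dissection 1 (0.0709) or renouncer imprint 1 (0.0517). Vcan was called without renouncer imprint 3 (−1.22, edgeR adjusted p = 0.0487), and it was −1.28 with 4 imprints left out. The stricter filter left Acan and Chst3 untested there. RLE scaling moved the median of all genes in that comparison to 0.03 from 0.16. Depth outside haemoglobin limits what the imprints can show for Acan, Vcan, Tnr and Chst3.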
